A study of Mus musculus with 15 samples.

Results

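ATP-binding cassette (ABC) transporter genes were measured in 3 cell populations sorted from mouse melanoma, and 49 of them are described here. The members are the genes whose symbol gives an ABC subfamily letter from A to G and a number, and whose mean over all 15 libraries was at least 5 normalized counts. Of 50 genes with such a symbol, only *Abcg8*, a sterol transporter of the liver and gut, fell under this minimum, with a mean of 1.72. Its partner *Abcg5* was the member closest to the limit on the other side, with 6.80. The table held 53465 genes, and 25549 of them reached the same minimum and were tested. Subfamily A had 16 members, B 10, C 10, D 4, E 1, F 3 and G 5.

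B16-F0 melanoma, a mouse cell line, was grown in the skin of CAG-GFP mice, which carry GFP in all tissues and were 8 to 14 weeks old. GFP+ host cells were sorted at day 15 as CD34+ and lineage-negative, and divided by CD31 and VEGFR2 staining into endovascular progenitors (EVP), transit amplifying cells (TA) and definitive differentiated cells (D). Each population had 5 RNA-seq libraries, numbered as replicates 1 to 5, and all 3 came from the same kind of tumor-bearing host, with no tumor-free group. The study compared them to characterize the molecular profile of each step of its endothelial hierarchy. The labels do not say whether replicates were separate mice or pools, so p-values measure the spread between these libraries.

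ABC proteins bind and hydrolyse ATP, and most of them use it to move lipids, drugs, peptides or metal-containing compounds across a membrane. Subfamilies A, D and G are known mainly for lipids, B and C for drugs, conjugates, peptides and mitochondrial cargo, with members of C that act instead as a chloride channel or as regulators of potassium channels. The E and F proteins have no membrane-spanning part and work at the ribosome. In blood vessels the family is known for the efflux pumps of barrier endothelium and for the export of cholesterol.

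Promoter sequence is shown for 5 genes whose EVP and D levels differed, so that the 3 neighbours on chromosome 11 that were higher in EVP can be read against 2 genes that were higher in D. Each line gives the bases before the annotated gene from RefSeq (GRCm38.p6), and all 5 genes lie on the minus strand. Capitals mark the GC box GGGCGG on either strand. The intervals are chr11:110095979-110096187 for *Abca8a*, chr11:109995846-109996095 for *Abca8b*, chr11:110168197-110168403 for *Abca9*, chr6:142702316-142702524 for *Abcc9* and chr14:118706220-118706469 for the upstream start of *Abcc4*.
Abca8a: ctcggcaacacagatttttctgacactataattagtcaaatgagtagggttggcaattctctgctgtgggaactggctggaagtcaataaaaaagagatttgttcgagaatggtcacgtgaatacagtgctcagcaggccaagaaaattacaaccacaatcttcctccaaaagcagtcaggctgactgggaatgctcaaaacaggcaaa
Abca8b: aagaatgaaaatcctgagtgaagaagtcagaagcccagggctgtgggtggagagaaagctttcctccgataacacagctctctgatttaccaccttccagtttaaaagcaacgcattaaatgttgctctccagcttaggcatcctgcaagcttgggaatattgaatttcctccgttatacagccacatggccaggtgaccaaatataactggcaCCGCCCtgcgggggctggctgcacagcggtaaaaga
Abca9: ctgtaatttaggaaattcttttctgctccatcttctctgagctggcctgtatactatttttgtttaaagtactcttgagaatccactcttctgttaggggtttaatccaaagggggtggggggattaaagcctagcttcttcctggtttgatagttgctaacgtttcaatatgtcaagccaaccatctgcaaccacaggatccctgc
Abcc9: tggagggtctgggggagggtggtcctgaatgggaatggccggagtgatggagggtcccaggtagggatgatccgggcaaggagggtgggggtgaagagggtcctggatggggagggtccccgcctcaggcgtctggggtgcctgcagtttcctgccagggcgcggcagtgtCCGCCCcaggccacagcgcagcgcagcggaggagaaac
Abcc4: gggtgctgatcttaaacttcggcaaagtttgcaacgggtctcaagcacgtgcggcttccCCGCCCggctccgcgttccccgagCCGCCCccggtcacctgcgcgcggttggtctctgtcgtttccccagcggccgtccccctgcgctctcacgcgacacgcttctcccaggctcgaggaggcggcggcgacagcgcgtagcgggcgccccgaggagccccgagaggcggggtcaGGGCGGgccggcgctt
Over the 250 bases before the start, G and C made up 43.2% in *Abca8a*, 48.8% in *Abca8b* and 44.4% in *Abca9*, against 66.8% in *Abcc9* and 72.0% in *Abcc4*. The median over all promoters was 52.4%. The other single-start genes that differed did not all follow this split. Those higher in EVP were *Abca2* (63.2%) and *Abcb6* (56.4%), and those higher in D were *Abca3* (67.6%), *Abcf1* (66.0%) and *Abcb1a* (40.4%). The other annotated start of *Abcc4* had 47.6% and no GC box. The longest run of identical bases between any 2 of the *Abca8a*, *Abca8b*, *Abca9* and *Abcc9* windows was 9. RefSeq promoters were matched for 37 members. Among the 9 members with a difference between EVP and D and a single RefSeq start, the GC box was found on either strand in 2 of the 5 that were higher in EVP and in 3 of the 4 that were higher in D. It was found in 32.7% of all 32851 promoter windows of that length. The motif CCGGAA, the core of many ETS factor sites, was in 0 of those 5 and 2 of those 4 windows, against 12.0% of all windows, TATAAA was in 1 and 0, against 12.4%, and CCAAT was in 1 and 0, against 33.8%. Such matches describe the letters only.

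The libraries held 5394356 to 26513073 reads assigned to genes, and the median library held 19049194. In normalized counts, 3 reads corresponded to a floor of 1.81 to 10.5, a limit that covers counting error only. Summed over 12 pan-endothelial markers, the normalized count was 3464 to 6540 in EVP, 9188 to 85304 in TA and 120648 to 197115 in D. Summed over 10 fibroblast markers, it was 847250 to 1505581 in EVP, 192799 to 611636 in TA and 1167 to 4252 in D. Although GFP+ host cells were sorted, melanoma transcripts were present in every library. Summed over 7 melanoma markers, the normalized count was 29776 to 67410 in EVP, 69334 to 176152 in TA and 18213 to 47920 in D. The endothelial marker *Cdh5* was at 18.3 to 183 in EVP and 7196 to 13383 in D, so the EVP label is used here for the sorted gate. No marker of any list was at 0 in all libraries of a population. All differences below compare bulk RNA, in which fewer cells of a type and less RNA per cell cannot be told apart. The EVP replicate 1 library had the fewest reads, and its mean level of olfactory receptor genes was 40.9 normalized counts per kilobase, against 0.0550 to 9.29 in the other libraries. At least 1 read fell on 98.3% of these genes there, on 89.2% in D replicate 1 and 81.6% in TA replicate 1, and on 2.89% to 71.0% in replicates 2 to 5. Comparisons are therefore also given without replicate 1 of each population.

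Of the 49 members, 16 differed between EVP and D, 9 of them higher in EVP and 7 higher in D. They were called by limma on log2(normalized count + 1) at a Benjamini-Hochberg adjusted p under 0.05 over all tested genes, and the unadjusted p was under 0.05 for 17. The same rule called 19.0% of all genes, 11.6% as higher in EVP and 7.46% as higher in D. Counts of called genes in the lists below, between EVP and D, are to be read beside these shares. The genes higher in EVP were *Abca2*, *Abca6*, *Abca8a*, *Abca8b*, *Abca9*, *Abcb6*, *Abcc10*, *Abcd2* and *Abcg4*. Those higher in D were *Abca3*, *Abcb1a*, *Abcc4*, *Abcc9*, *Abcf1*, *Abcg1* and *Abcg2*. EVP and D values were fully separate in 15 of the 49 members, 8 with EVP above and 7 with D above, while 17.7% of all genes showed no overlap. All 15 were among the 16 called genes, and *Abcg4* was the called gene with overlap. Without replicate 1 of each population the count was again 16, against 18.8% of all genes. On the recovered reads, edgeR called 13 members and 15.1% of all genes, and DESeq2 17 members and 21.7%. The median log2 difference, EVP minus D, was 0.32 over the members and 0.46 over all tested genes. The TA mean lay between those of EVP and D on the log2 scale for 16 of 16 genes, although the arithmetic mean of *Abcg4* was higher in TA (38.6) than in EVP (30.3). The 16 were picked for a gap between EVP and D, which favours a TA mean in between. The count therefore shows nothing particular to ABC genes. Placed on a line from EVP at 0 to D at 1, TA stood at 0.14 for *Abcc10*, at 0.82 for *Abcc9* and at a median of 0.296.

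**Figure D1:**
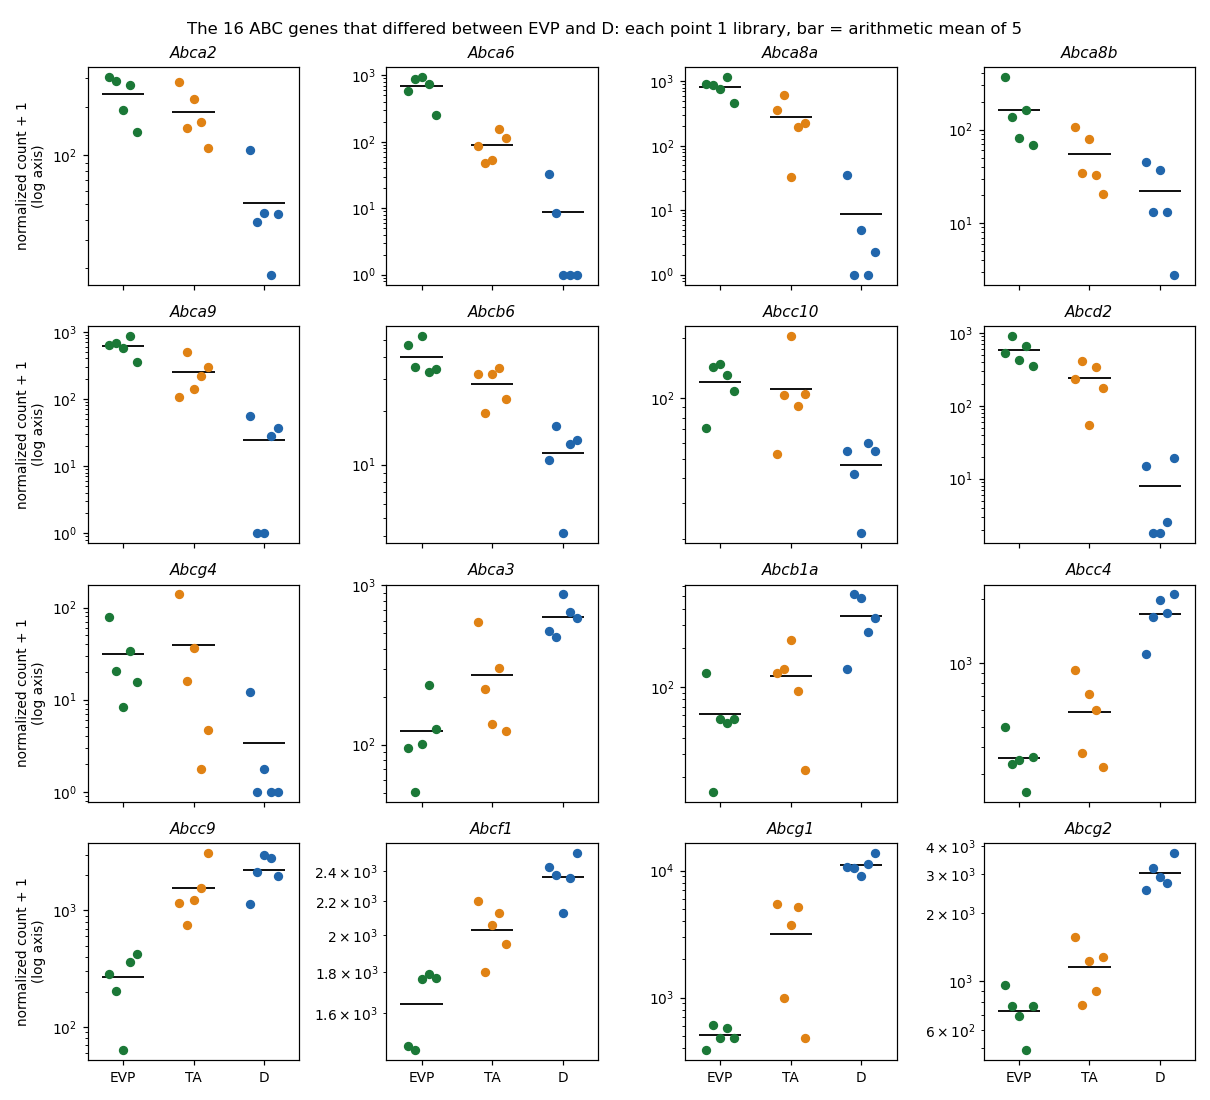
Normalized count + 1 (log axis) in every library for the 16 ABC genes that differed between EVP and D, 1 panel per gene. Points are single libraries, bars are arithmetic means of 5. *Abcg1* libraries sit between 383 and 609 in EVP and between 9106 and 13785 in D, and the 5 TA libraries spread from 483 to 5495.

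The widest gaps, those of *Abca8a* and *Abca6*, belonged to a block of lipid-transporter-like genes of subfamily A on chromosome 11. *Abca8b*, *Abca8a*, *Abca9*, *Abca6* and *Abca5* lie side by side on the minus strand of GRCm38 between positions 109932190 and 110337716, over 405.5 kb. They form a mammalian group with little-known cargo, related in sequence to cholesterol exporters. The first 4 were higher in EVP than in D, whereas *Abca5*, at the end of the row, was not called.

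*Abca8a* (ENSMUSG00000041828, chr11:110025634-110095978) had 906, 866, 753, 1151 and 456 normalized counts in EVP replicates 1 to 5. In TA it had 362, 601, 31.3, 193 and 228, and in D 34.3, 0, 3.91, 0 and 1.21. Every EVP library was above every D library, and the D mean rested mainly on replicate 1. The mean in EVP was 826 ± 253 (SD, n = 5) against 7.89 ± 14.9 in D, with a log2 difference of 7.91 (SE 0.88, limma adjusted p = 3.0e-06).

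*Abca6* (ENSMUSG00000044749, chr11:110176820-110251776) had 589.9, 886, 934, 738 and 251 in EVP, 86.2, 46.6, 52.5, 153 and 112 in TA, and 31.6, 7.35, 0, 0 and 0 in D. The 3 populations did not overlap in any pair. The log2 difference between EVP and D was 7.66 (SE 0.84, limma adjusted p = 2.7e-06). The EVP mean was 7.55-fold the TA mean, and this difference of 2.91 on the log2 scale had an adjusted p of 0.0693 by limma.

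*Abca9* (ENSMUSG00000041797, chr11:110100749-110168196) had 625, 686, 578, 867 and 353 in EVP, 107, 501, 139.5, 216 and 298 in TA, and 54.9, 0, 0, 27.0 and 36.3 in D. EVP libraries stood above all D libraries, and so did TA libraries. The log2 difference between EVP and D was 6.06 (SE 0.98, limma adjusted p = 1.6e-04). *Abca8b* (ENSMUSG00000020620, chr11:109932190-109995845) was lower throughout, with 362, 135, 80.2, 163 and 67.8 in EVP and 43.9, 12.2, 36.0, 12.0 and 1.81 in D. Its means were 161 ± 119 in EVP, 54.2 ± 37.2 in TA and 21.2 ± 17.9 in D, and the log2 difference between EVP and D was 3.15 (limma adjusted p = 0.00397). *Abca5*, a lysosomal transporter, had 249.6 to 597 in EVP, 149 to 496 in TA and 302 to 779.8 in D. Its log2 difference between EVP and D was -0.09, with a 95% interval from -0.79 to 0.62 and a limma adjusted p of 0.896. *Abca8a* and *Abca8b* share 0.527% and 0.458% of their 76-base exon windows, so few reads could fit both.

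Fibroblast markers moved in the same direction as this block: 10 of 10 were higher in EVP than in D and 10 of 10 were higher in TA than in D. Keratinocyte markers did too, with 6 of 6 higher in EVP than in D and in TA than in D. Melanoma markers were higher in EVP than in D for 1 of 7 and in TA than in D for 7 of 7, and Schwann cell markers for 2 of 5 and 4 of 5. The summed normalized count of the keratinocyte markers was 1372 to 8083 in EVP, 1967 to 67865 in TA and 42.9 to 2286 in D. The part of other cell types in the differences of the block was not tested.

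Away from chromosome 11, *Abca2*, an endosomal and lysosomal lipid transporter (ENSMUSG00000026944, chr2:25428703-25448540), was also higher in EVP. It had 302, 286, 189.8, 271 and 138 in EVP, 284, 147, 221, 159.8 and 110.2 in TA, and 107, 37.6, 43.0, 17.3 and 42.3 in D. EVP and TA each stood wholly above D. The mean was 4.80-fold higher in EVP than in D, a log2 difference of 2.42 (SE 0.42, limma adjusted p = 3.7e-04).

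*Abca3*, which loads phospholipid into lamellar bodies of the lung (ENSMUSG00000024130, chr17:24351950-24410201), was the member of subfamily A called in the other direction. It had 94.8, 49.6, 101, 234 and 124 in EVP, 584, 223, 134, 302 and 121 in TA, and 518, 475, 875, 675 and 623 in D. All D libraries were above all EVP libraries, and TA replicate 1 fell inside the D range. In D the mean was 5.25-fold that of EVP, and the log2 difference, EVP minus D, was -2.52 (SE 0.43, limma adjusted p = 2.7e-04). An exon of *Abca3* overlaps the gene *D330041H03Rik* on the opposite strand by up to 691 bases, and whether the counting used strand is not given in the sources used here.

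*Abca1*, the cholesterol exporter that loads apolipoprotein A-I (ENSMUSG00000015243, chr4:53030787-53159895), had the highest level per kilobase of exons in subfamily A as a mean over all 15 libraries. In EVP, *Abca8a* (132), *Abca6* (126) and *Abca9* (77.2) were above *Abca1* (68.0) in normalized counts per kilobase, and in TA *Abca7* was (63.5 against 54.2). *Abca1* had 801, 918, 792, 776 and 239 in EVP, 665, 677, 699, 625 and 143 in TA, and 766, 1885, 1638, 1257 and 904 in D. Replicate 5 was far below the other libraries in EVP and TA, and D replicates 1 and 5 were within the EVP range. The D mean was 1.83-fold the EVP mean, with a log2 difference of -0.93 (95% interval -1.87 to 0.02, limma adjusted p = 0.190), and it did not pass the test. Every D library was above every TA library, at a log2 difference of -1.31 and a limma adjusted p of 0.0662. This p was 0.0345 without EVP replicate 5, which enters only through the shared estimate of the spread, and 0.0469 without D replicate 1.

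*Abcg1*, which exports cholesterol to lipoprotein particles (ENSMUSG00000024030, chr17:31057698-31115777), was higher in D than in both other populations. It had 383, 609, 478, 571 and 479 normalized counts in EVP, 5495, 989, 3752, 5159 and 483 in TA, and 10659, 10416, 9106, 11366 and 13785 in D. D stood wholly above both other populations, and TA held 3 libraries at 3752 or above and 2 at 989 or below. The D mean was 22.0-fold the EVP mean, a log2 difference of -4.46 (SE 0.51, limma adjusted p = 4.0e-06).

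The TA libraries also differed in their endothelial markers. Summed, these were 85304, 21459, 42652, 30031 and 9188 in TA replicates 1 to 5, with the highest value in replicate 1 and the lowest in replicate 5, as for *Abcg1*. Between EVP and D, 11 of 12 pan-endothelial markers were higher in D, as was 1 of 3 tested adipocyte markers, *Fabp4*, which capillary endothelium also expresses. Of 9 myeloid markers, of interest because macrophages express *Abcg1*, 1 was called between EVP and D, as higher in EVP. Over the 9 the median log2 difference, EVP minus D, was -0.79, against 0.46 over all genes, and their summed normalized count was 2462 to 12793 in EVP (median 4059) and 4760 to 13080 in D (median 8353). The part of these cell types in the *Abcg1* values was not tested.

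Summed over the 49 members, the normalized count was 18954 to 25989 in EVP, 19880 to 28124 in TA and 34132 to 40451 in D. *Abcg1* contributed 26.7% to 34.1% of that sum in D, against 2.15% to 20.1% in TA and 1.47% to 2.97% in EVP. Without *Abcg1* the sums were 18475 to 25606, 18738 to 22629 and 23999 to 26665. Per kilobase of exons, a scale that allows levels of different genes to be compared, *Abcg1* was first of the 49 members in D with 1516 ± 236.5 normalized counts per kilobase, at rank 4 in TA with 435 ± 319 and at rank 15 in EVP.

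**Figure D2:**
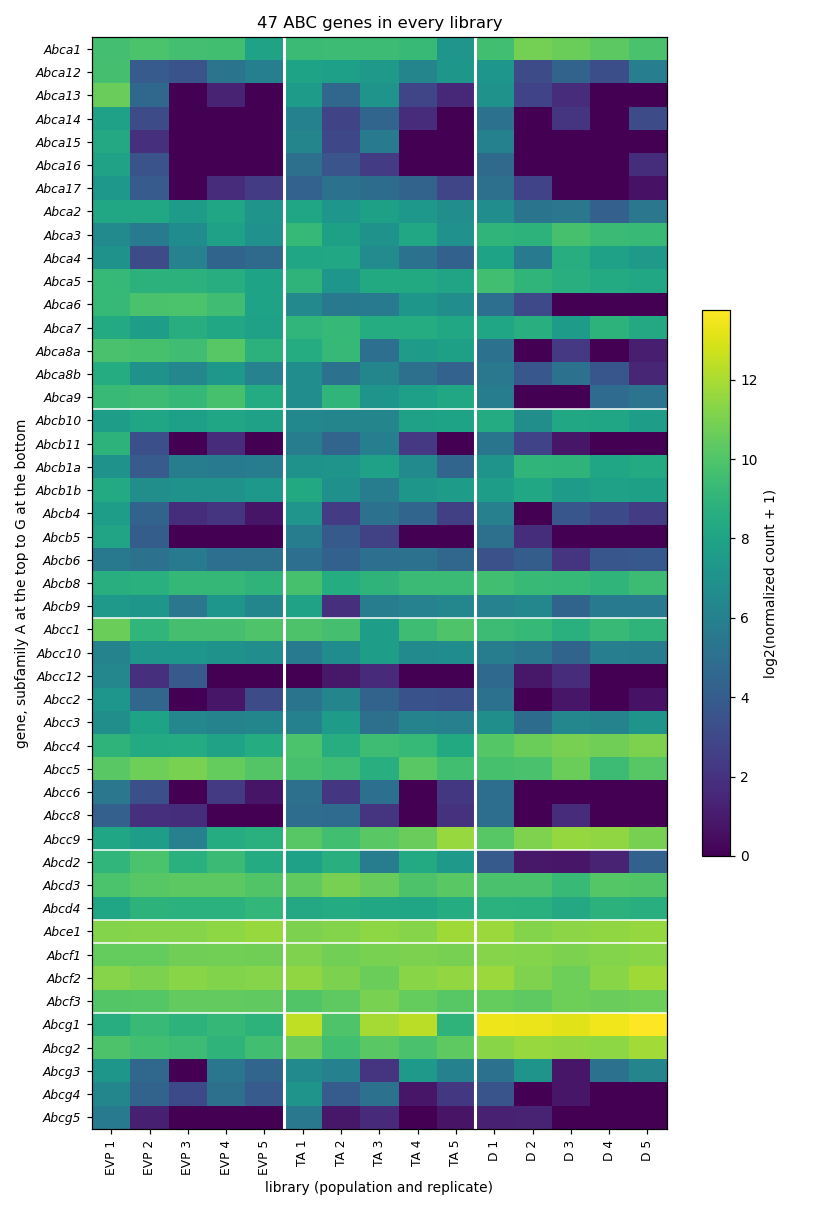
Heat map of log2(normalized count + 1) for 47 members (rows, subfamily A at the top to G at the bottom) in the 15 libraries (columns, EVP, TA and D replicates 1 to 5), from 0 in dark purple to the highest level in yellow. *Abcg1* is brightest in the 5 D libraries, and *Abca6*, *Abca8a* and *Abcd2* are dark there. The replicate 1 columns hold over 50% of the summed normalized count of 15 members. Some of these also have signal in other columns, such as *Abca12* with 76.8 to 246 in the TA libraries.

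The wider cholesterol genes did not follow 1 direction. Among 20 genes of cholesterol handling and of the LXR pathway, which senses oxysterols and drives *Abca1* and *Abcg1*, 8 were higher in EVP than in D and 2 were higher in D. Over all genes, 11.6% were called as higher in EVP and 7.46% as higher in D. The median log2 difference was 0.68, against 0.46 over all genes. *Lpl*, lipoprotein lipase, was at 6963 ± 3787 in EVP and 393 ± 233 in D, a log2 difference of 4.27 (limma adjusted p = 2.2e-06). *Cyp27a1*, which makes an oxysterol in mitochondria, had a log2 difference of 4.34 (limma adjusted p = 0.0209). The genes higher in D were *Ch25h*, which makes another oxysterol, with a log2 difference of -3.26 (limma adjusted p = 0.00298), and *Scarb1*, the HDL receptor, with -3.04 (limma adjusted p = 3.1e-07). *Scarb1* averaged 5843 ± 1956 in D, 2223 ± 927 in TA and 703 ± 191 in EVP. The other 10 genes of the list did not pass the test.

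Of the other members of subfamily G, *Abcg2* (BCRP, a broad drug pump, ENSMUSG00000029802, chr6:58584523-58695676) was higher in D. It had 955, 767, 697, 488 and 770.3 in EVP, 1562, 779, 1224, 903 and 1275 in TA, and 2548, 3173, 2909, 2727 and 3719.8 in D. D stood above both other populations without overlap. Its mean in D was 4.10-fold that in EVP and 2.63-fold that in TA, and the log2 difference, EVP minus D, was -2.05 (SE 0.21, limma adjusted p = 1.4e-06).

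*Abcg4*, a sterol transporter known mainly from the nervous system (ENSMUSG00000032131, chr9:44273188-44288615), was low in every population. It had 77.2, 19.6, 7.36, 32.8 and 14.5 in EVP, 138, 14.9, 35.7, 0.784 and 3.74 in TA, and 10.98, 0, 0.782, 0 and 0 in D. D replicate 1 was above EVP replicate 3, so the groups overlapped. The log2 difference between EVP and D was 3.67 (SE 1.11) with a limma adjusted p of 0.0263. It was 0.0696 without EVP replicate 1, 0.0612 without EVP replicate 4, and 0.0634, 0.0646 and 0.0650 without D replicates 2, 4 and 5, while without replicate 1 of all populations it was 0.00762. *Abcg3*, a rodent member of the subfamily, ranged from 0 to 154 in EVP, 3.35 to 171 in TA and 0.782 to 139 in D and was not called.

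Peroxisomal transporters form subfamily D, except *Abcd4*, which serves cobalamin transport in lysosomes. *Abcd2*, which brings very-long-chain acyl-CoA into peroxisomes (ENSMUSG00000055782, chr15:91145884-91191807), had 530.2, 909, 428, 669 and 349 in EVP, 234, 415, 53.6, 341 and 172 in TA, and 13.7, 0.816, 0.782, 1.502 and 18.1 in D. The D libraries lay wholly under both other populations. The EVP mean was 82.5-fold the D mean, and the log2 difference was 6.86 (SE 0.70, limma adjusted p = 1.3e-06).

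No member of subfamily D other than *Abcd2* passed the test. *Abcd3*, the most abundant peroxisomal member per kilobase (ENSMUSG00000028127, chr3:121758774-121815302), had 927, 1164, 1243, 1241 and 1036 in EVP, 1327, 1961, 1507, 962 and 1197 in TA, and 891, 878, 638, 1106 and 1024 in D. The populations overlapped in every pair, and the log2 difference between EVP and D was 0.32 (95% interval -0.10 to 0.75, limma adjusted p = 0.356). Among 11 other peroxisome genes, 1 was called as higher in EVP and 1 as higher in D. Their median log2 difference, EVP minus D, was -0.13, against 0.46 over all genes. The gene higher in EVP was *Pex5*, the import receptor, by 0.70 on the log2 scale (limma adjusted p = 0.0347).

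**Figure D3:**
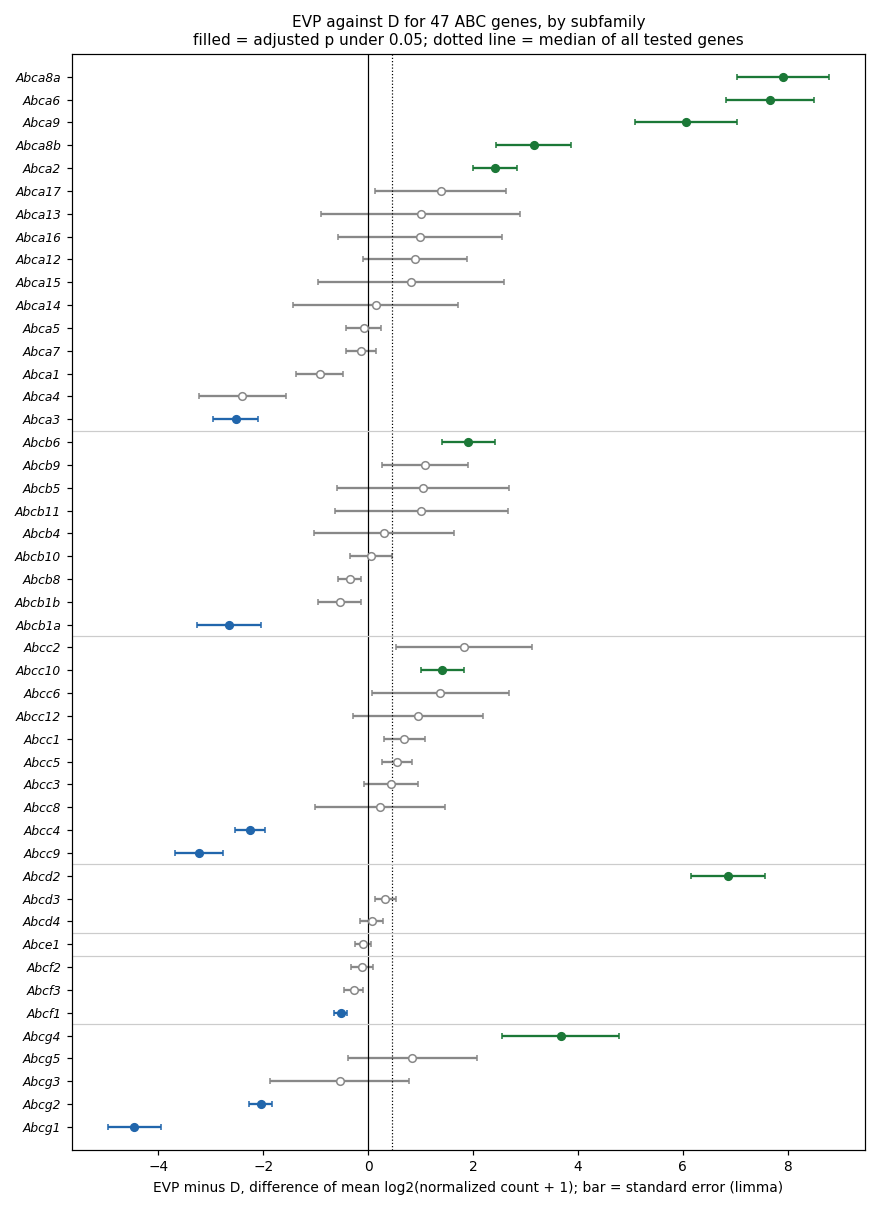
Difference of mean log2(normalized count + 1), EVP minus D, for 47 members grouped by subfamily, with standard errors from limma as bars. Filled points are the 16 members with an adjusted p under 0.05 (green higher in EVP, blue higher in D), from -4.46 for *Abcg1* to 7.91 for *Abca8a*, and the dotted line is the median of all tested genes, 0.46.

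Efflux pumps of drugs and conjugates come from subfamilies B, C and G. Of those described here, *Abcb1a*, *Abcc4* and *Abcg2*, known from barrier vessels, were higher in D, as were 7.46% of all tested genes. *Abcc10* was higher in EVP, and *Abcb1b*, *Abcc1*, *Abcc3* and *Abcc5* were not called between EVP and D. *Abcb1a*, a mouse P-glycoprotein (ENSMUSG00000040584, chr5:8660077-8748575), had 126, 14.4, 55.6, 51.2 and 55.3 in EVP, 126, 136, 229, 90.9 and 21.8 in TA, and 136, 518, 487, 266 and 338 in D. EVP and D did not overlap, though EVP replicate 1 and D replicate 1 came close. The D mean was 5.76-fold the EVP mean, and the log2 difference was -2.65 (SE 0.61, limma adjusted p = 0.00421). Its near copy *Abcb1b* ranged from 108 to 334 in EVP and 195 to 302 in D, a log2 difference of -0.54 (95% interval -1.40 to 0.32). *Abcb1a* shares 11.7% of its 76-base exon windows with *Abcb1b*, and *Abcb1b* shares 7.90% with *Abcb1a*, so the split of reads between them is partly uncertain.

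*Abcc4*, an exporter of cyclic nucleotides and prostaglandins (ENSMUSG00000032849, chr14:118482692-118706219), had 495, 333, 348, 245 and 359.6 in EVP, 927, 376, 709.8, 596 and 322 in TA, and 1102, 1645, 1978, 1714 and 2106 in D. D stood above EVP and TA without overlap. The D mean was 4.80-fold the EVP mean and 2.91-fold the TA mean, with a log2 difference between EVP and D of -2.26 (SE 0.29, limma adjusted p = 1.3e-05).

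*Abcc10*, a lipophilic drug pump (ENSMUSG00000032842, chr17:46303221-46328352), went the other way, with 70.2, 142, 147, 129 and 107 in EVP, 51.7, 103, 203, 90.9 and 103 in TA, and 53.5, 40.8, 20.3, 58.6 and 53.8 in D. Its log2 difference between EVP and D was 1.41 (SE 0.41, limma adjusted p = 0.0204), and EVP and D did not overlap. The adjusted p was 0.0525 without EVP replicate 2, 0.0544 without EVP replicate 3 and 0.0586 without D replicate 3. An exon overlaps *Dlk2* on the opposite strand by 51 bases. *Abcc1*, *Abcc3* and *Abcc5*, pumps of conjugated anions and nucleotides, did not pass, with log2 differences of 0.69, 0.44 and 0.54.

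Among other genes of barrier vessels and of detoxification, 4 were called as higher in EVP and 1 as higher in D. The shares over all genes were 11.6% and 7.46%. Of 10 barrier endothelium genes, *Slc16a1*, a lactate carrier, was higher in EVP, at 2029 ± 428 against 349 ± 126 in D (log2 difference 2.57, limma adjusted p = 1.9e-07), and the other 9 did not pass. The median log2 difference over the 10, EVP minus D, was 1.53, against 0.46 over all genes. Of 13 tested xenobiotic and glutathione genes, *Cyp1b1* at 9.09, *Ephx1* at 2.49 and *Gstm1* at 2.45 were higher in EVP on the log2 scale, while *Gsr*, glutathione reductase, was higher in D at -0.84. Their limma adjusted p-values were 6.2e-08, 8.0e-06, 1.2e-05 and 0.00804.

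*Abcc9* encodes SUR2, which does not pump a cargo but forms an ATP-sensitive potassium channel with the product of *Kcnj8* in pericytes and smooth muscle. *Abcc9* (ENSMUSG00000030249, chr6:142587862-142702315) had 284, 201, 62.2, 359 and 422 in EVP, 1149.6, 756, 1221, 1568 and 3112 in TA, and 1139.5, 2153, 3005, 2821 and 1962 in D. EVP lay wholly under TA and D, which overlapped each other. The D mean was 8.34-fold and the TA mean 5.87-fold the EVP mean. The log2 difference between EVP and D was -3.23 (SE 0.46, limma adjusted p = 4.6e-05).

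*Kcnj8* averaged 394 ± 405 in EVP, while TA stood at 2983 ± 1952 and D at 2845 ± 1841. Its log2 difference was -3.14 between EVP and D (limma adjusted p = 0.00119) and -3.30 between EVP and TA (limma adjusted p = 0.00732). *Kcnj11*, the alternative pore gene, was under the minimum and not tested. Mural cell markers varied strongly between libraries. Summed over 10 of them, the normalized count was 7467 to 35253 in EVP, 11215 to 155291 in TA and 12041 to 20712 in D. Of these markers, *Rgs5* was at 1029, 14465, 8292, 25309 and 85852 in TA replicates 1 to 5 and at 994 to 4625 in D. TA replicate 5 was the highest TA library for *Rgs5*, *Kcnj8* and *Abcc9*, with 6333 for *Kcnj8*. In D, *Abcc9* and *Kcnj8* were both highest in replicate 3, where *Rgs5* was at its lowest. Of 10 mural markers, 4 were higher in EVP than in D and 1 was higher in D, and the part of mural cells in the *Abcc9* difference was not tested.

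In subfamily B, which also holds transporters of mitochondria and lysosomes, 8 of 10 members did not pass the test between EVP and D. Of all tested genes, 19.0% passed it. *Abcb6*, known for porphyrin transport (ENSMUSG00000026198, chr1:75171717-75180392), was called as higher in EVP, with 45.6, 34.0, 51.5, 32.0 and 33.2 in EVP, 31.0, 18.5, 31.3, 33.7 and 22.4 in TA, and 9.61, 15.5, 3.13, 12.0 and 12.7 in D. EVP and TA stood above D in every library. The log2 difference between EVP and D was 1.91 (SE 0.50, limma adjusted p = 0.0105). With edgeR on the recovered reads the adjusted p was 0.0622. *Gm29253* overlaps an exon of *Abcb6* by 823 bases on the same strand, so reads there cannot be assigned with certainty.

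*Abcb8*, the most abundant member of subfamily B per kilobase and part of the mitochondrial inner membrane (ENSMUSG00000028973, chr5:24393663-24410054), had 411, 429.8, 564, 581 and 496 in EVP, 846, 371, 493, 668 and 664 in TA, and 763, 617, 599, 511 and 681 in D. The log2 difference between EVP and D was -0.35 (95% interval -0.82 to 0.12, limma adjusted p = 0.357). For *Abcb10* the difference was 0.05 (interval -0.78 to 0.88) and for the lysosomal peptide carrier *Abcb9* 1.09 (-0.65 to 2.82). Of 13 heme and iron-sulfur genes, *Alas1* and *Alad*, the first enzymes of heme synthesis, were higher in D, with differences of -0.79 (limma adjusted p = 0.0282) and -0.87 (0.0108). *Tap1* and *Tap2*, the peptide transporters of antigen presentation and also ABC genes though named otherwise, were not called, with differences of -0.30 and -0.56. Of 14 peptide loading genes, *Calr* was higher in EVP by 0.65 (limma adjusted p = 0.0265) and *Psmb9* was higher in D, with -0.87 (limma adjusted p = 0.0491). *Cftr*, the chloride channel of subfamily C, was not called either, with -0.39.

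The members without a membrane part, *Abce1* and *Abcf1* to *Abcf3*, took the first 4 ranks per kilobase in EVP, and 1 of the 4, *Abcf1*, was called. *Abce1*, which splits ribosomes after termination (ENSMUSG00000058355, chr8:79683462-79711740), had 2338, 2453, 2468, 2719.8 and 3209 in EVP, 2122, 2319, 2772, 2456 and 3490.3 in TA, and 3237, 2356, 2649, 2855 and 3016 in D. Its log2 difference between EVP and D was -0.10, with a 95% interval from -0.43 to 0.23. *Abcf2* (ENSMUSG00000028953, chr5:24565345-24577467) had 2416, 2111, 2507, 2295 and 2447 in EVP, 2844, 2075, 1648, 2569.9 and 2954 in TA, and 3267, 2174, 1706, 2541 and 3528 in D, with a difference of -0.12 (interval -0.55 to 0.31). For *Abcf3*, which works with the GCN2 stress pathway, it was -0.27 (interval -0.66 to 0.11).

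*Abcf1*, a factor of translation initiation (ENSMUSG00000038762, chr17:35956819-35969761), was called as higher in D by the smallest difference of the 16. It had 1457, 1439.6, 1763, 1789 and 1771 in EVP, 2199, 1799, 2056, 2128 and 1949.7 in TA, and 2422, 2367, 2128, 2348 and 2524 in D. EVP lay under TA and D in every library, and TA and D overlapped. Its mean in D was 1.43-fold that in EVP, a log2 difference of -0.52 (SE 0.13, limma adjusted p = 0.00637). Among 9 tested partners of these factors at the ribosome, 4 were higher in D and 0 in EVP, with a median of -0.41 against 0.46 over all genes. They were *Pelo* at -2.53 (limma adjusted p = 0.00196), *Eif2ak4* at -1.08 (0.0101), *Eif2s2* at -0.67 (0.00262) and *Hbs1l* at -0.55 (0.0268).

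Between EVP and TA, 2 of 49 members were called, *Abcc9* and *Abcg1*, both higher in TA. The rule called 3.5% of all genes, 1.56% as higher in EVP and 1.94% as higher in TA, and 11 members had an unadjusted p under 0.05. For *Abcc9* the log2 difference, EVP minus TA, was -2.64 (SE 0.46, limma adjusted p = 0.00483), and for *Abcg1* it was -2.14 (SE 0.51, limma adjusted p = 0.0253). The *Abcg1* libraries overlapped, since TA replicate 5 at 483 lay among the EVP values. Libraries did not overlap for 3 members, *Abca6* with EVP above and *Abcc9* and *Abcf1* with TA above, while this held for 4.29% of all genes. Higher in TA than in EVP were also 9 of 12 pan-endothelial, 6 of 9 myeloid and 3 of 7 melanoma markers. So were 1 of 10 mural and 1 of 3 tested adipocyte markers, while 6 of 10 fibroblast markers were higher in EVP. Over the 10 mural markers the median log2 difference, EVP minus TA, was -1.33, against 0.09 over all genes. The part of these cell types in both differences was not tested.

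Without replicate 1 of each population, 0 members were called between EVP and TA by limma, and 0.407% of all genes were. The unadjusted p was under 0.05 for 11 members there, and with all libraries edgeR called 2 members and 2.6% of all genes, and DESeq2 6 members and 7.44%. The adjusted p was then 0.0592 for *Abcc9*, at a difference of -2.80, and 0.208 for *Abcg1*, at -1.71. For *Abcg1* the adjusted p was also over the threshold without EVP replicate 1 (0.0628), EVP replicate 2 (0.0564), EVP replicate 3 (0.0609), TA replicate 1 (0.0656), TA replicate 3 (0.0748) and TA replicate 4 (0.0665). Without TA replicate 5 it was 3.7e-04. For *Abca6*, at 0.0693 with all libraries, it was 0.0154 without D replicate 1, a library that enters only through the shared estimate of the spread.

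Between TA and D, 9 members were called, all of them among the 16. *Abca2*, *Abca6*, *Abca8a*, *Abca9* and *Abcd2* were higher in TA, and *Abca3*, *Abcc4*, *Abcg1* and *Abcg2* were higher in D. The rule called 12.5% of all genes, 8.21% as higher in TA and 4.31% as higher in D. The median log2 difference was 0.42 over the members and 0.24 over all genes. Over all 49 members, libraries did not overlap for 5 with TA above and for 4 with D above, while this held for 9.25% of all genes. Of the 9 called members, 7 were among these, and the exceptions were *Abca3* and *Abca8a*. This comparison shares its D libraries with that of EVP and D.

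The log2 differences, TA minus D, were 5.92 for *Abca8a*, 5.41 for *Abcd2*, 4.75 for *Abca6*, 4.60 for *Abca9* and 2.03 for *Abca2*. For *Abcg1* the difference was -2.32, for *Abcc4* -1.62 and for *Abca3* and *Abcg2* -1.42 each. The limma adjusted p-values ran from 5.2e-05 for *Abcd2* to 0.0363 for *Abca3*. For *Abca3* the adjusted p was 0.0627, 0.0867 and 0.0958 without TA replicates 2, 3 and 5, and 0.0949, 0.0809 and 0.0733 without D replicates 3, 4 and 5. The count of called members was 14 without replicate 1 of each population, against 15.6% of all genes. It was also 14 without D replicate 1 alone, where 3489 of all 25549 tested genes were called. With edgeR it was 8, against 10.1% of all genes, and with DESeq2 15, against 16.4%. Pan-endothelial markers were higher in D for 9 of 12 and fibroblast markers higher in TA for 10 of 10. Also higher in TA were 7 of 7 melanoma, 6 of 6 keratinocyte, 6 of 10 mural, 4 of 5 Schwann cell and 2 of 9 myeloid markers. The part of these cell types in the differences was not tested.

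A further 15 members carried most of their signal in the replicate 1 libraries. For these, 59.5% to 93.5% of the summed normalized count came from EVP, TA and D replicate 1, where an equal spread would give 20%. For the other 34 members the share was 12.7% to 43.3%. They were *Abca12* to *Abca17*, *Abcb4*, *Abcb5*, *Abcb11*, *Abcc2*, *Abcc6*, *Abcc8*, *Abcc12*, *Abcg4* and *Abcg5*, among them the bile transporters of liver (*Abcb4*, *Abcb11*, *Abcc2*), the skin lipid transporter *Abca12* and SUR1 of the pancreas (*Abcc8*). *Abcg4* was the only member of this set called in any comparison with the reported settings. Without replicate 1 of each population, *Abca12*, *Abca17*, *Abcc2* and *Abcg4* were called as higher in TA than in D. Their limma adjusted p-values were 0.0156, 0.0277, 0.0194 and 0.0457. TA replicates 2 and 3, which stayed in, had at least 1 read on 57.8% and 71.0% of the olfactory receptor genes.

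*Abca13*, the longest protein of the family, had 1538 normalized counts in EVP replicate 1, 186 in TA replicate 1 and 135 in D replicate 1, and up to 138 in any other library. *Abcb11*, the bile salt pump, had 478, 53.4 and 39.8 there, and up to 59.2 elsewhere. *Abcg5* had 49.2 in EVP replicate 1 and 44.8 in TA replicate 1, and up to 2.23 in the libraries of replicates 2 to 5. Olfactory receptor genes, known from sensory neurons of the nose, had 87.1% of their summed normalized count in replicate 1, and in EVP replicate 1 their mean level was 40.9 normalized counts per kilobase. The 15 members had 2.17 to 92.8 per kilobase in that library. The median log2 difference between EVP and D was 0.98 over the 15 and -0.09 over the other 34. The part of the signal shared with olfactory receptor genes in these values was not tested.

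**Figure D4:**
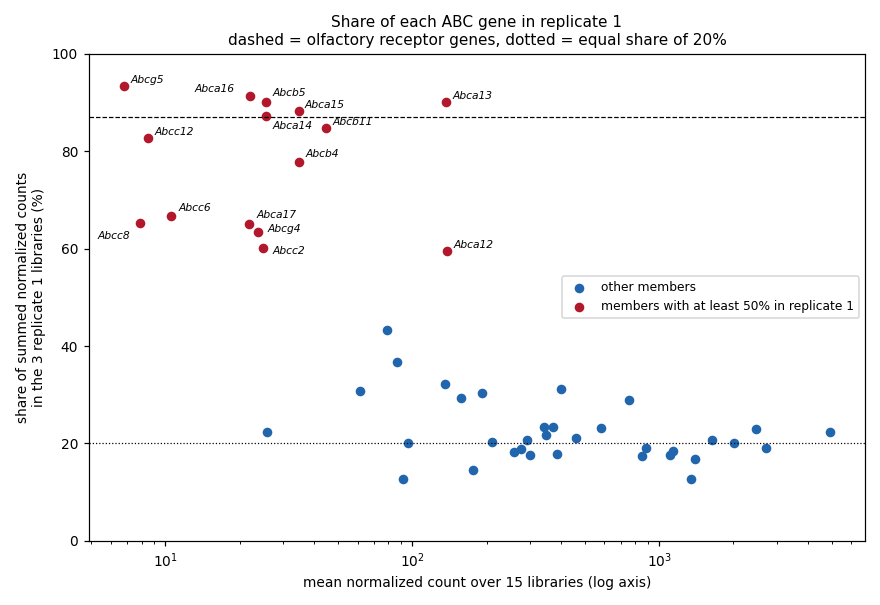
Share of each member's summed normalized count that came from the 3 replicate 1 libraries (percent), against its mean normalized count (log axis), with the equal share of 20% and the olfactory receptor genes' share of 87.1% as dotted and dashed lines. The 15 members over 50% (red) have means of 6.80 to 138 normalized counts, and *Abcg5* is highest at 93.5%.

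A few members with signal in all replicates were likewise not called in any comparison with the reported settings. *Abca4*, known from photoreceptors, had 7.84 to 126 in EVP, 18.1 to 289 in TA and 48.2 to 374 in D, with a log2 difference between EVP and D of -2.40 (95% interval -4.16 to -0.65, limma adjusted p = 0.0527). For *Abca4* this p was under the threshold with TA replicate 1, 2 or 5 left out (0.0455, 0.0430 and 0.0344), and likewise with D replicate 2 (0.0258) or EVP replicate 1 (0.0251) left out. *Abca7*, a relative of *Abca1*, had 204 to 384, 306 to 583 and 184 to 477, with a difference of -0.13 (interval -0.73 to 0.47). *Abcd4* had 270.4 to 553, 275 to 365 and 311 to 451, with a difference of 0.06 (interval -0.39 to 0.52). Altogether 33 of the 49 members passed the test in none of the 3 comparisons: 10 in subfamily A, 8 in B, 7 in C, 3 in D, 1 in E, 2 in F and 2 in G. The same 33 were those not called between EVP and D, where the rule called 19.0% of all genes.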

How the data were processed

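RNA-seq libraries were made from sorted cells with a modified Smart-Seq2 protocol and sequenced on an Illumina NextSeq500. Per the study's methods and processing notes, the authors mapped reads to mm10 with STAR 2.5.3a, counted reads per gene on the Ensembl 91 annotation of GRCm38 (HTSeq-count 0.6.1), and deposited DESeq2 1.10.1 normalized counts, a signal of counts divided by a size factor per library. Strand and the treatment of multi-mapping reads are not given in the sources used here. Deposited tables of fold changes and p-values from the authors' own comparisons were not used. Dividing each library by its smallest step gave whole reads for 100.0% of values within 0.01.

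Differences were tested with limma 3.58.1 (trend, two-sided, 15 libraries in 1 fit, R 4.3.3) on log2(normalized count + 1) over 25549 genes (minimum mean 5), with Benjamini-Hochberg adjustment and a threshold of 0.05. A fold is a ratio of arithmetic means, and a log2 difference compares means of log2 values, so the 2 need not match. The added 1 lowers the log2 differences of low genes, yet these can still exceed the log2 of the fold. *Abca8a*, for example, had a log2 difference of 7.91 between EVP and D and a fold of 105. Alternatives were a pseudocount of 0.5 or 8, no minimum, a minimum of 20, equal totals, quantile normalization, array weights, 2 populations only, the replicate number as a block, edgeR 4.0.16, DESeq2 1.42.0, and leaving out libraries. On data simulated for EVP against D over 25549 genes, limma recovered 151 of 200 changed genes with 4 others called. The simulation gave all genes the same dispersion, made large changes in genes with higher means only, and had no replicate 1 signal. It checks that the code runs as meant and gives no error rate for these data. Genes were named if called in any comparison or highest per kilobase of exons (GENCODE vM21) in their subfamily, and context genes by the largest called changes, at most 4 per list. The members and lists were chosen with earlier results of these data known. *Itgam* and *Gcn1*, each in a list, were not matched to 1 gene and were left out. A few genes among the members and lists were counted but are not reported here by name.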

Additional observations from a re-analysis of the deposited data

Results flagged for a closer look

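Within each population of 5 libraries, the highest and the lowest value of the 21 named genes were set against the others by Dixon's gap ratio on the log2 scale, with a 95% limit of 0.71. Of 63 such groups 3 passed the limit, where chance alone gives about 1 in 20. *Abca1* in EVP replicate 5 was at 238.6 normalized counts, with the other EVP libraries at 776 to 918. *Abca1* in TA replicate 5 was at 142.6, with the other TA libraries at 625 to 699, while D replicate 5 was at 904 and within the D range. *Abcg4* in D replicate 1 was at 10.98, with the other D libraries at 0 to 0.782.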

How the results depend on the processing

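The 27 differences called with the reported settings were recomputed under 27 alternatives each. Of 729 values, 694 kept their direction and their side of the threshold, 35 kept their direction and lost the call, and 0 reversed, and 20 of the 27 differences lost no call. Lost calls not given above were those of *Abca2* between TA and D with quantile normalization (adjusted p = 0.0630), *Abcb6* and *Abcc10* between EVP and D with quantile normalization (0.758 and 0.910), *Abcc10* with edgeR (0.0521), *Abcg4* with a pseudocount of 8, quantile normalization and edgeR (0.0996, 0.0581 and 0.150), *Abca3* between TA and D with no minimum, quantile normalization and edgeR (0.0623, 0.119 and 0.0806), and *Abcg1* between EVP and TA with array weights and with 2 populations only (0.0722 and 0.0759). The cause was not tested. Of 972 values of uncalled differences of named genes, 36 became called, *Abca1* between TA and D under 6 alternatives. *Abca4* became called between EVP and D under 12, with adjusted p-values from 0.00151 to 0.0455. The count between EVP and D was 13 (edgeR) to 19 (array weights) against 16, and 15 to 17 with 1 library left out. Between EVP and TA it was 1 with array weights, 6 with DESeq2 and 0 without replicate 1 against 2, and 1 to 3 with 1 library left out. Between TA and D it was 15 with array weights, 15 with DESeq2 and 14 without replicate 1 against 9, and 8 to 14 with 1 library left out. In the same order of comparisons, array weights called 7609, 693 and 5054 of all 25549 genes, against 4859, 893 and 3199 as reported. With 1 library left out, the calls over all genes were 4120 to 5152, 429 to 1214 and 2417 to 3501.

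With the replicate number as a block, 18 members were called between EVP and D, 2 between EVP and TA and 14 between TA and D. Over all 25549 tested genes the block gave 5710, 1262 and 4047 calls, against 4859, 893 and 3199 without it. Called with the block and not without it were *Abca1* (adjusted p = 0.0265) and *Abca4* (0.0300) between EVP and D, and *Abca1* (0.00560), *Abca8b* (0.0428), *Abca12* (0.0266), *Abcc2* (0.0327) and *Abcg4* (0.0226) between TA and D. The labels do not say that a number marks a shared mouse or day, and the reported values do not use the pairing. For each tested gene, the population mean was subtracted on the log2 scale, and the deviations were compared between libraries. Deviations of same-numbered libraries correlated at -0.136 to 0.689. In 12 of 15 cases they correlated best with those of their own number, and in 4 of 15 the correlation was 0.1 or less. The reason for these matches was not tested. The median log2 difference of all genes between EVP and D was 0.46, but 0.00 without EVP replicate 1 and -0.05 with quantile normalization, and differences near that size depend on the scaling. Calls between EVP and D split 9 to 7 as reported and 6 to 8 with quantile normalization, against 2952 to 1907 and 1920 to 1983 over all genes. At 1.81 to 10.5 normalized counts for 3 reads, the D values of some called genes rest on few reads: 1 of 5 D libraries had more than 3 reads for *Abcg4*, 2 of 5 for *Abca6*, *Abca8a* and *Abcd2*, 3 of 5 for *Abca9* and 4 of 5 for *Abca8b*.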
